A study of Mus musculus with 8 samples.

Results

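Fyn and its kinase relatives were followed in the RNA of sorted mouse Paneth cells, which secrete antimicrobial peptides from the bottom of the crypts of the small intestine. The 7 genes were Fyn, Src, Yes1, Lyn, Frk, Csk and Pag1, out of 55414 gene IDs in the count table, and all 7 had enough counts to be tested. They were chosen by name, with the TG against WT fold changes of these same libraries known, so the values of that contrast are given for them as a description, with no test. Not all of the genes are Src family kinases: Frk is a relative of the family, Csk is the kinase that switches the family off, and Pag1 codes for a membrane adaptor that is no kinase. The TG group held 4 libraries from mice whose Paneth cells express diphtheria toxin, which blocks protein synthesis in the cell that makes it, and WT stands for 4 libraries of wild type animals. Cells were sorted from the small intestine, and stranded libraries were made from polyadenylated RNA. The study states that its sorted cells came from individual C57BL/6J mice, and it sequenced the sorted cells after depletion of mature Paneth cells. The TG libraries hold the cells that were still sorted as Paneth cells in these mice. Neither the promoter that drives the toxin nor the age of the mice is given in the sources used here.

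The TG libraries held 13107397 to 16218434 counts each, and the WT libraries 13601510 to 15018711. The Y-linked genes, 4 in number, summed to 0 counts in replicates 1 and 2 and to 897 to 1564 counts in replicates 3 and 4, in TG and WT alike. Mitochondrial genes took 1.15 to 1.53% of the counts in TG and 0.566 to 1.1% in WT, with no overlap. The Paneth cell markers summed to between 377000 and 571000 CPM (a gene's counts divided by the library's total after TMM scaling, times 1e6) in every library, a sum carried by the most abundant markers. Of these 10 markers, 3 were called lower in TG by edgeR: Mptx2 (0.393-fold), Mmp7 (0.664-fold) and Ang4 (0.672-fold), the last with overlapping ranges. The enterocyte markers summed to 632 to 772 CPM in TG and 429 to 539 CPM in WT, with 6 of 12 called higher in TG by edgeR, beside 8.26% of all genes tested called higher and 9.65% lower.

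Src family kinases sit at the inner face of the plasma membrane, held there by a fatty acid on the glycine that follows the first methionine, and they pass on signals from growth factor receptors, integrins and immune receptors. A tyrosine near the end of the protein controls them. When Csk phosphorylates it, the tail folds back and the kinase is held inactive, and when a phosphatase removes the phosphate, the kinase opens. Pag1, once phosphorylated, brings Csk to the membrane beside its substrates.

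The last 60 coding bases before the stop codon show what sets the kinases apart from their inhibitor. They are given 5′ to 3′ on the coding strand of the GRCm39 assembly, from the GENCODE annotation, with the codon of the last tyrosine in capitals. Each stretch lies in 1 coding exon, at chr10:39439906-39439965 (plus strand) for Fyn, chr2:157311819-157311878 (plus) for Src, chr5:32842041-32842100 (plus) for Yes1, chr4:3789882-3789941 (plus) for Lyn, chr10:34484505-34484564 (plus) for Frk and chr9:57534607-57534666 (minus) for Csk.
Fyn: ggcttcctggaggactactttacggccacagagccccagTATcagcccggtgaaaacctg
Src: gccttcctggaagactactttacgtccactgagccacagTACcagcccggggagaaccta
Yes1: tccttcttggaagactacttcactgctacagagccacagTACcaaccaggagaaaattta
Lyn: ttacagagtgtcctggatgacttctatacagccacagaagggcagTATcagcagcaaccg
Frk: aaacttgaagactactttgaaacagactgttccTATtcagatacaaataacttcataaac
Csk: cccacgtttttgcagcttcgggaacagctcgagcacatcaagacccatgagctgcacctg

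The tail tyrosine was followed by 6 codons in Fyn, Src and Yes1, by 4 in Lyn and by 8 in Frk. Aligned on that codon, the tail of Fyn shared 51 of 60 bases with Src (85%), 45 of 60 with Yes1 (75%), 35 of 54 with Lyn (64.8%) and 19 of 54 with Frk (35.2%). Csk had no tyrosine codon in this stretch, and its last one lay 34 codons before the stop. The glycine codon after the start was present in the other 5 kinases and absent from Csk. In spite of these likenesses, no run of 75 bases was shared by the coding transcripts of any pair of the 7 genes.

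Fyn stood out among the 7 genes. It is a Src family kinase best known from T cells and the brain, and lies on chromosome 10 from 39244851 to 39442227, plus strand (ENSMUSG00000019843). In the TG replicates 1 to 4 it had 27.6, 29.2, 21.9 and 30.1 CPM, from 441, 416, 389 and 396 counts. In the WT replicates it had 7.83, 6.19, 6.485 and 9.52 CPM, from 98, 89, 97 and 128 counts. All TG libraries lay above all WT libraries, and the gap between the groups was wider than the range within either. The means were 27.2 ± 3.67 CPM for TG and 7.51 ± 1.52 CPM for WT (SD, n = 4 each), a 3.63-fold difference and a log2 fold change of 1.86 ± 0.15 (SE). Of 11929 genes tested, 88 (0.738%) had a log2 fold change of at least this size in either direction. By the same fit 17.9% of all genes were called at an adjusted p below 0.05, and of the 7 genes 1, Fyn, was called. Since the genes were chosen with this contrast known, nothing is read from that count. In bulk RNA, fewer cells of a type and less RNA per cell cannot be told apart, and this holds for each gene described here.

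**Figure D1:**
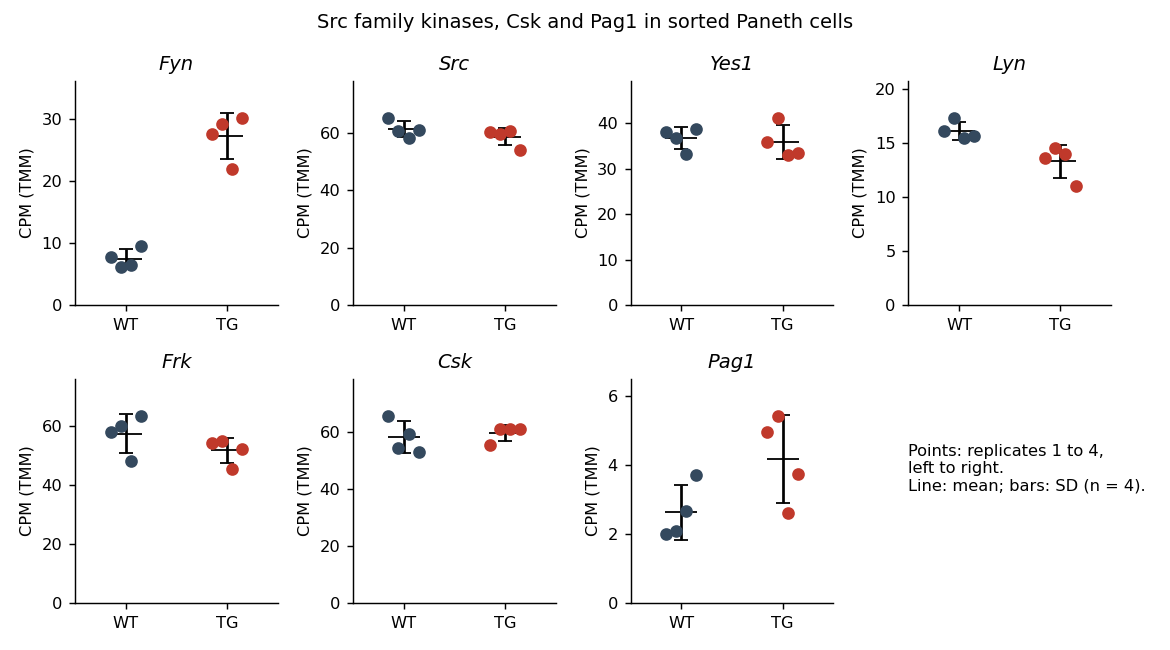
CPM (TMM-normalised, linear axis from 0) of the 7 genes in each WT and TG library, with replicates 1 to 4 from left to right, the mean as a line and the SD as bars (n = 4). The 4 TG libraries have 21.9 to 30.1 CPM of Fyn against 6.19 to 9.52 CPM in WT, and of the other genes only Lyn separates the groups.

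The 3 close relatives of Fyn did not show such a difference. Src, the kinase that gave the family its name (chromosome 2, 157260355 to 157313782, plus strand, ENSMUSG00000027646), had 60.2, 59.6, 60.7 and 54.2 CPM in TG. The WT libraries had 65.1, 60.7, 58.3 and 61.05 CPM, and the ranges overlapped. The means of Src were 58.7 ± 3.01 and 61.3 ± 2.82 CPM (SD, n = 4 each), a log2 fold change of -0.06 ± 0.08 (SE).

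Yes1, a kinase close to Src that many epithelia express (chromosome 5, 32768101 to 32845256, plus strand, ENSMUSG00000014932), had 35.9, 41.1, 33.03 and 33.4 CPM in TG. It had 38.1, 36.8, 33.3 and 38.7 CPM in WT, and both the highest and the lowest of the 8 values were in TG. Its log2 fold change was -0.03 ± 0.09 (SE).

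Lyn, best known from B cells and myeloid cells (chromosome 4, 3678061 to 3813122, plus strand, ENSMUSG00000042228), was the other gene whose groups did not overlap. It had 13.6, 14.55, 13.98 and 11.0 CPM in TG and 16.05, 17.25, 15.4 and 15.6 CPM in WT. All WT libraries lay above all TG libraries, but by a small step, since the highest TG and the lowest WT library differed by less than the range within TG. The means were 13.3 ± 1.56 and 16.1 ± 0.815 CPM (SD, n = 4 each), a log2 fold change of -0.27 ± 0.11 (SE). CPM ranges without overlap were found for 22.0% of all genes tested and for 2 of the 7 genes, Fyn higher and Lyn lower in TG.

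Frk, a relative of the family in epithelial cells (chromosome 10, 34359267 to 34489480, plus strand, ENSMUSG00000019779), had 54.05, 54.9, 45.3 and 52.1 CPM in TG and 57.8, 59.9, 47.9 and 63.2 CPM in WT. Replicate 3 was the lowest of its group in both, and the ranges overlapped. Its log2 fold change was -0.15 ± 0.10 (SE).

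Of the genes that hold the kinases in check, Csk was level between the groups. Csk (chromosome 9, 57533543 to 57560914, minus strand, ENSMUSG00000032312) had 55.6, 61.3, 61.2 and 61.3 CPM in TG and 65.7, 54.7, 59.6 and 53.2 CPM in WT. The highest and the lowest value were both in WT, and the log2 fold change was 0.04 ± 0.09 (SE).

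Pag1 had the fewest counts (chromosome 3, 9752539 to 9898739, minus strand, ENSMUSG00000027508). It had 4.94, 5.41, 2.59 and 3.72 CPM in TG and 1.997, 2.09, 2.67 and 3.72 CPM in WT. Replicates 1 and 2 were the high ones in TG and the low ones in WT, while replicates 3 and 4 were near each other across the groups. The means were 4.17 ± 1.27 and 2.62 ± 0.792 CPM (SD, n = 4 each), a log2 fold change of 0.66 ± 0.27 (SE), with overlapping ranges. In TG the libraries varied by 30.4% of the mean, and counting error alone would give 12.6%.

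To see whether these differences hung on how the counts were treated, the contrast was fitted in 19 further ways. The log2 fold change of Fyn stayed between 1.71 and 2.02. Lyn stayed between -0.32 and -0.16 and Frk between -0.23 and -0.03, below 0 in each fit. Src ran from -0.09 to 0.06, Yes1 from -0.11 to 0.09 and Csk from -0.04 to 0.16, so that none of these has a direction. The value of 0.06 for Src was found when counts were scaled by library totals alone, which moves the median of all genes from 0.01 to 0.12. Pag1 ran from -0.02, in the libraries with Y-linked counts, to 1.33, in those without.

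**Figure D2:**
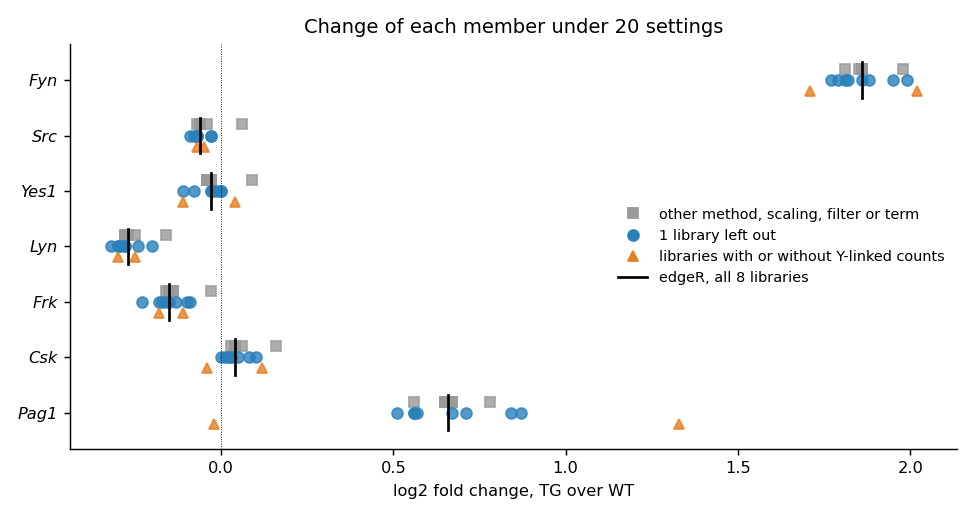
Log2 fold change (TG over WT, horizontal axis) of the 7 genes under 20 settings: the black line is the edgeR fit of all 8 libraries, blue points leave out 1 library, orange triangles use only the libraries with or without Y-linked counts, and grey squares change the method, scaling, filter or terms. Fyn stays between 1.71 and 2.02, and Pag1 spreads from -0.02 to 1.33.

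The libraries with and without Y-linked counts had no part in the choice of the genes and could be compared with a test. Of all genes tested, 0.176% were called for this difference by edgeR, and 0 of the 7 genes were. None of the 7 had an unadjusted p below 0.05, and DESeq2 called 0 as well. The log2 differences, with minus without Y-linked counts, ran from -0.14 (Yes1) to 0.00 (Fyn, 17.0 CPM with and 17.7 CPM without), with adjusted p of 0.945 to 0.9998 (edgeR).

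Whether the difference between TG and WT itself depended on this split was tested as an interaction, for which edgeR called 0.0251% of all genes. None of the 7 genes was among them, and 1 had an unadjusted p below 0.05. That gene was Pag1, whose log2 fold change was -0.02 ± 0.33 in the libraries with Y-linked counts and 1.33 ± 0.30 in those without (SE). The difference of -1.36 ± 0.44 had an unadjusted p of 0.00809 and an adjusted p of 0.6675 (edgeR), and so failed the correction. For Fyn the values were 1.71 ± 0.22 with and 2.02 ± 0.18 without, and the difference of -0.32 ± 0.30 had an adjusted p of 0.9415 (edgeR).

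To compare the genes with each other, CPM were divided by the length of each gene's exons in kb. Over the 8 libraries the mean levels were 10.2 CPM per kb for Csk, 10.2 for Src, 7.18 for Frk, 3.07 for Lyn, 2.67 for Yes1, 1.5 for Fyn and 0.292 for Pag1. Among these 7 genes, the inhibitor Csk thus had a higher mean level by exon length than every other kinase but Src, which was level with it. Each gene was set against the next in this order within a library, by an exact two-sided sign-flip permutation test over the 8 libraries, adjusted over the 6 pairs. Csk and Src differed by a log2 value of 0.00 ± 0.12 (SD, n = 8; adjusted p = 0.977, exact), with Csk above in 5 of 8 libraries. Src lay above Frk by 0.51 ± 0.15, Frk above Lyn by 1.23 ± 0.20 and Fyn above Pag1 by 2.16 ± 0.71 in 8 of 8 libraries (log2, SD, n = 8; adjusted p = 0.0156 each, exact; p = 0.00781 is the smallest that 8 libraries allow). Lyn lay above Yes1 by 0.20 ± 0.18 in 7 of 8 libraries, all but TG replicate 4 (log2, SD, n = 8; adjusted p = 0.0281, exact). This step was lost when TG replicate 1 or 3 or any of the 4 WT replicates was left out. Yes1 lay above Fyn by 1.12 ± 1.04 in 7 of 8 libraries, again all but TG replicate 4 (log2, SD, n = 8; adjusted p = 0.0234, exact). This pooled value describes neither group, since Yes1 and Fyn had mean levels of 2.7 and 0.65 CPM per kb in WT. In TG their mean levels were 2.63 and 2.35 CPM per kb. The test thus takes in the TG against WT difference on which Fyn was chosen, and the step is given as a description.

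**Figure D3:**
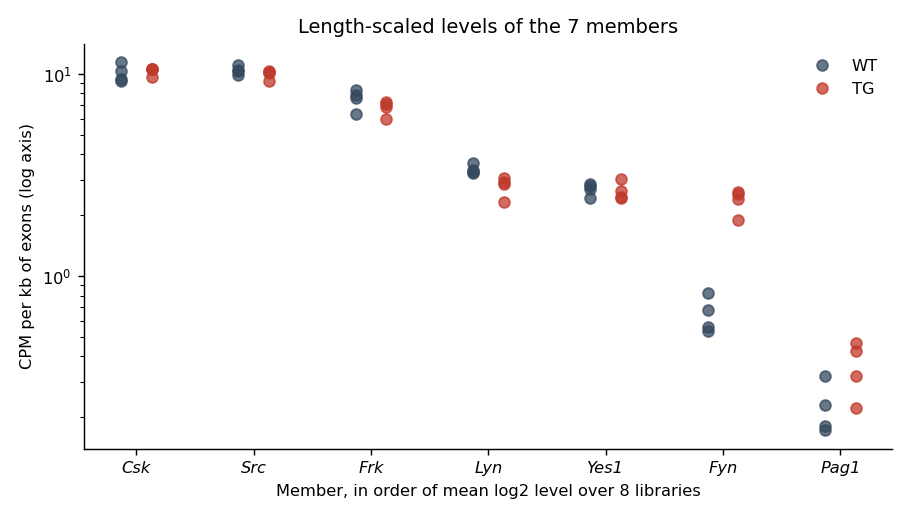
Length-scaled level (CPM per kb of exons, log axis) of each gene in the 4 WT (dark) and 4 TG (red) libraries, ordered by the mean over all 8. By exon length Fyn has the sixth level in both groups and lies next to Yes1 and Lyn in TG, between 1.9 and 2.6, but not in WT, between 0.536 and 0.824.

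The order depended on the length used. With the longest annotated transcript in place of all exons, Csk lay above Src by 0.36 ± 0.12 and Yes1 above Lyn by 0.23 ± 0.18 in 8 of 8 libraries (log2, SD, n = 8; adjusted p = 0.00938 each, exact). The step above Fyn, then from Lyn, was 0.73 ± 1.19 with Lyn above in 5 of 8 libraries (log2, SD, n = 8; adjusted p = 0.125, exact) and was no longer called. By that length the level of Fyn in TG was 4.7 ± 0.633 CPM per kb beside 4.69 ± 0.486 for Yes1 and 3.68 ± 0.433 for Lyn, and in WT it was 1.3 ± 0.262 beside 4.8 ± 0.318 and 4.46 ± 0.226 (SD, n = 4 each).

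By exon length, Fyn was sixth in both groups, and the distance to Yes1 was smaller in TG. In TG its level was 2.35 ± 0.317 CPM per kb beside 2.63 ± 0.273 for Yes1 and 2.78 ± 0.327 for Lyn, whereas in WT it was 0.65 ± 0.132 beside 2.7 ± 0.179 and 3.37 ± 0.171 (SD, n = 4 each). Of the summed level per exon length of the 4 Src family kinases (Fyn, Src, Yes1 and Lyn), Fyn made up 13.2, 13.5, 10.8 and 15.7% in the TG libraries and 3.78, 3.12, 3.47 and 4.76% in the WT libraries. The sum itself overlapped between the groups, at 17.8 ± 0.908 CPM per kb in TG and 17.1 ± 0.729 for WT (SD, n = 4 each). Divided by the level of Csk, the sum was 1.56 to 1.88 in TG and 1.57 to 1.88 in WT.

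Since Fyn is abundant in T cells, and intraepithelial lymphocytes lie between the epithelial cells, markers of other cells were read beside it. The 13 markers of T cells and intraepithelial lymphocytes summed to 0.0703 to 0.62 CPM in TG and 0.134 to 0.417 CPM in WT, against 21.9 to 30.1 CPM of Fyn in TG. Of these 13, the 6 genes Cd3g, Cd4, Gzma, Cd7, Trdc and Nkg7 had 0 counts in all 8 libraries, and Cd3e and Cd3d had 2 and 1 counts. A count of 0 in a library allows for up to 3 counts, or 0.169 to 0.24 CPM here, for counting error only. The 6 B and plasma cell markers summed to 0 to 0.304 CPM in TG and 0.134 to 0.559 CPM in WT.

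Of the 10 myeloid markers Csf1r, Adgre1, Tyrobp and Cd52 were at 0, and their sum, mostly of Lyz2, was 9.44 to 30.4 CPM in TG and 12.2 to 19 CPM in WT. The 6 tuft cell markers, led by Trpm5 and Dclk1, summed to 21.7 to 65.3 CPM in TG and 22.1 to 46.1 CPM in WT, with overlap and 1 of 5 tested called higher. The 10 stromal and endothelial markers summed to 0.773 to 1.82 CPM in TG and 0.16 to 0.487 CPM in WT, without overlap, with Col1a2, Lum and Cdh5 at 0 and 1 called higher. Of the 12 enterocyte markers, none was at 0, and 6 were called higher in TG while the other 6 were not called. Anpep, the most abundant, was among the latter (log2 0.19 ± 0.12, edgeR adjusted p = 0.2555), with overlapping ranges. It had the smallest change of the 12, all of which had a higher fitted value in TG, from 1.14-fold for Anpep up to 6.94-fold. The part of enterocyte RNA, and of the higher mitochondrial share, in the difference in Fyn was not tested. Goblet cell markers (4460 to 6840 CPM in TG, 5870 to 7000 CPM in WT), stem cell markers (1700 to 2460 and 1610 to 2310 CPM) and enteroendocrine markers (22.1 to 34.9 and 28.7 to 65.1 CPM) overlapped between the groups in their sums. Of the stem cell markers, Axin2 was called higher (log2 0.52 ± 0.12) and Smoc2 lower (log2 -0.35 ± 0.09), of the enteroendocrine markers Tac1 was called lower (log2 -3.49 ± 0.89, with overlapping ranges; SE, edgeR), and no goblet cell marker was called. These 3 genes and the 3 Paneth cell markers above are named after their values were seen.

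The other genes of the pathway were read from 4 lists that hold 124 genes, of which 102 were tested. Of these, 14 were called higher and 7 lower in TG, and 81 were not called, so that 20.6% were called, beside 17.9% of all genes tested (8.26% higher and 9.65% lower). With counts scaled by library totals alone the split was 13 higher and 2 lower, beside 787 and 262 over all genes (8.79% of those tested). Of the 7 lower genes Skap2 and Stat3 then kept the call, while Ptpn11, Nmt1, Ptprj, Eps8 and Met lost it. The median log2 fold change over the lists was -0.01, beside 0.01 over all genes. With TMM scaling and all 8 libraries, the share called in either direction and the median lay close to those of all genes. The split by direction did not, as higher calls outnumbered lower ones in the lists but not over all genes. By list, 21.7% of the tested regulators, 20.5% of the substrates, 21.9% of the receptors and 0 of 3 other kinases were called. The split was not tested, and the genes below are described singly.

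The other kinases of the Src, Frk and Csk families were scarce. Blk and Srms had 0 counts in all 8 libraries, and Lck, the main Src family kinase of T cells, and Ptk6, of epithelia, had 38 and 73 counts over all 8 libraries and were not tested. Of the 3 tested, edgeR, DESeq2 and limma voom called 0, and 1 had an unadjusted p below 0.05 (edgeR). That was Fgr, a myeloid kinase, at 1.3 ± 0.269 CPM in TG and 0.661 ± 0.307 CPM for WT (SD, n = 4 each), with a log2 fold change of 0.96 ± 0.37 (SE) and an adjusted p of 0.0888 (edgeR). For Matk, a kinase like Csk, the log2 fold change was 0.81 ± 0.54 (SE), and the ranges overlapped.

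Of 30 phosphatases, ubiquitin ligases and other regulators of the kinases, 23 were tested, 2 rose and 3 fell. Arrb1, a beta-arrestin that brings Src to G protein coupled receptors, rose from 35.7 ± 4.17 to 52.1 ± 4.61 CPM (SD, n = 4 each; log2 0.54 ± 0.10, edgeR adjusted p = 0.0031). Cblb, a ubiquitin ligase that marks active tyrosine kinases for removal, rose 1.32-fold (edgeR adjusted p = 0.0173). Ptpn11, a phosphatase that acts downstream of growth factor receptors, fell from 74.1 ± 3.75 to 59.4 ± 2.84 CPM (log2 -0.32 ± 0.08, edgeR adjusted p = 0.0148). Nmt1, the enzyme that puts the fatty acid on the glycine of the Src family kinases, fell from 79.5 ± 4.97 to 65.5 ± 2.32 CPM (edgeR adjusted p = 0.0271). Ptprj, a receptor-type phosphatase, fell from 45.05 ± 5.04 to 35.9 ± 2.02 CPM with overlapping ranges (edgeR adjusted p = 0.0304). Of these 5 calls, 2 were left when counts were scaled by library totals alone. Without TG replicate 1, the count was also 2. It was 3 without TG replicate 2 and 3 without WT replicate 4.

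Of 50 substrates and effectors, 44 were tested, 6 rose and 3 fell, and their median log2 fold change was -0.06. The 2 adaptors Skap1 and Skap2, which bind Fyn and its relatives, moved in opposite directions. Skap1, best known from T cells, had 3.61 to 4.81 CPM in TG and 1.34 to 2.305 CPM in WT, a log2 fold change of 1.25 ± 0.22 (SE; edgeR adjusted p = 0.00268). Skap2, its more widely expressed relative, had 14.1 ± 1.06 CPM in TG and 23.4 ± 1.76 CPM in WT (SD, n = 4), a log2 fold change of -0.73 ± 0.10 (SE; edgeR adjusted p = 0.000751). Neither gene's groups overlapped.

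Dab1, the adaptor that Fyn and Src phosphorylate in reelin signalling, rose from 2.45 ± 0.849 to 5.3 ± 1.0 CPM (SD, n = 4 each; log2 1.11 ± 0.24, edgeR adjusted p = 0.0066). Pik3r1, a regulatory subunit of phosphoinositide 3-kinase, rose from 52.3 ± 9.7 to 94.85 ± 3.81 CPM (log2 0.86 ± 0.12, edgeR adjusted p = 0.000751). Gab1, a docking protein of growth factor receptors, rose 1.48-fold (edgeR adjusted p = 0.00157). The other 2 that rose, which the naming rule left out and which are named after their values were seen, were Sh3pxd2a, a scaffold of invasive cell protrusions (log2 0.56 ± 0.12), and Plcg1, a phospholipase (log2 0.46 ± 0.15). Stat3, a transcription factor that tyrosine kinases activate, fell from 137.8 ± 19.4 to 80.0 ± 14.8 CPM (log2 -0.78 ± 0.13, edgeR adjusted p = 0.00205). Eps8, a regulator of actin, fell from 157.5 ± 8.56 to 120.5 ± 6.57 CPM (edgeR adjusted p = 0.0068; 0.128 with library totals alone).

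Of 37 receptors and adhesion molecules, 32 were tested, 6 rose and 1 fell. Erbb3, a receptor of neuregulins, rose from 91.8 ± 5.19 to 141.2 ± 20.2 CPM (SD, n = 4 each; log2 0.62 ± 0.10, edgeR adjusted p = 0.00185). Its partner Erbb2 rose 1.44-fold (edgeR adjusted p = 0.00615). Kit, the receptor of stem cell factor, was the most abundant of the 7 and rose from 217.0 ± 17.5 to 303.3 ± 19.8 CPM (log2 0.48 ± 0.09, edgeR adjusted p = 0.00352). Fgfr3, a fibroblast growth factor receptor, rose 1.38-fold (edgeR adjusted p = 0.00548). Insr, the insulin receptor (log2 0.45 ± 0.12), and Epha2, a receptor of ephrins (log2 0.63 ± 0.20), also rose and are named after their values were seen. Met, the receptor of hepatocyte growth factor, fell from 34.0 ± 1.44 to 26.4 ± 2.77 CPM (log2 -0.36 ± 0.09, edgeR adjusted p = 0.017; 0.283 with library totals alone and 0.0813 and 0.337 in the libraries with and without Y-linked counts). The count of 7 became 11 with DESeq2, with no filter or without WT replicate 3.

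**Figure D4:**
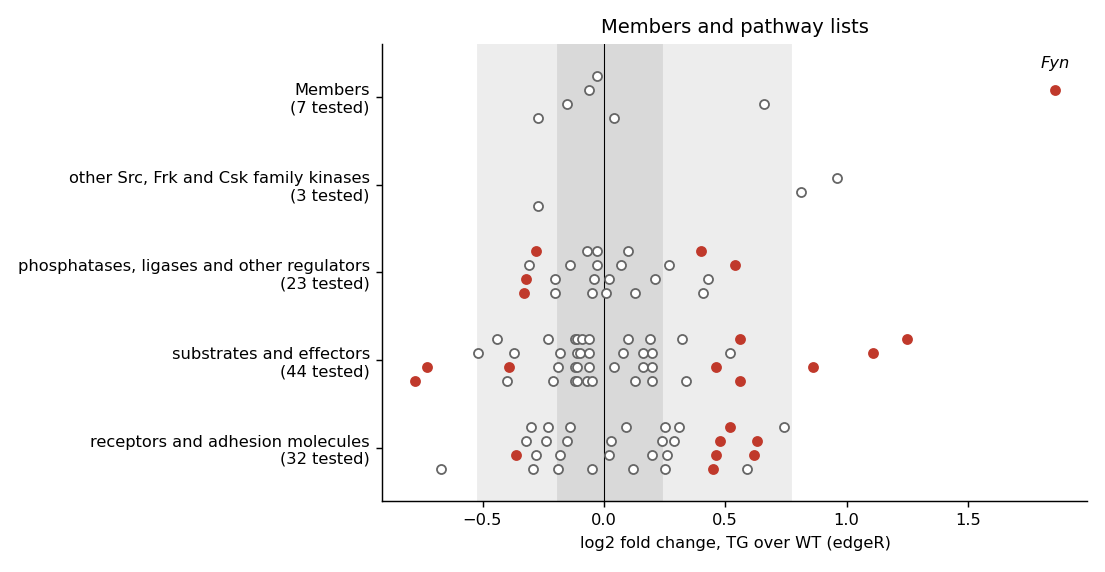
Log2 fold change (TG over WT, edgeR, horizontal axis) of the 7 genes and of each tested gene of the 4 pathway lists, with filled red points for an adjusted p below 0.05 and vertical offsets only to part the points. The dark grey band holds the middle of all genes tested (25th to 75th percentile, -0.19 to 0.24) and the light band the 5th to 95th (-0.52 to 0.77), and Fyn at 1.86 lies to the right of every other point.

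The genes whose profile over the 8 libraries was most like that of Fyn were found from centred log2 CPM, as those with the smallest root mean square difference from it. They were Frs3 (0.24), Ttc28 (0.27), Cpt1a (0.27), Gm16638 (0.28) and Ptprr (0.28). Frs3 and Gm16638 had only 127 and 105 counts over all 8 libraries. In WT they had 0.278 to 0.744 and 0.3195 to 0.446 CPM, so their places in this order rest on few counts. Frs3 is a docking protein of fibroblast growth factor receptors, Cpt1a carries fatty acids into mitochondria, and Ptprr is a receptor-type tyrosine phosphatase. Since they were picked for this likeness, their levels are a description. Cpt1a had 82.0 to 185.6 CPM in TG and 35.5 to 44.0 CPM in WT, and Ttc28 had 6.93 to 8.69 CPM in TG and 1.52 to 2.34 CPM in WT.

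The neighbourhood of Fyn on chromosome 10 was read to see whether nearby genes moved as well. Of 46 genes that start within 1 Mb of the start of Fyn, 11 were tested, 2 were called higher and 2 lower, beside 8.26% and 9.65% of all genes. The nearest tested genes on either side were not called. Tube1, an epsilon tubulin, had a log2 fold change of 0.48 ± 0.26 (SE; edgeR adjusted p = 0.2187), and Traf3ip2, an adaptor of interleukin signalling, had -0.03 ± 0.09 (edgeR adjusted p = 0.8316). Farther away, Slc16a10, an amino acid transporter, rose (log2 0.71 ± 0.18, edgeR adjusted p = 0.0162), as did Cdk19, a kinase of the mediator complex (log2 0.57 ± 0.11, edgeR adjusted p = 0.00304). Rpf2, a ribosome assembly factor (log2 -0.57 ± 0.14, edgeR adjusted p = 0.0124), and Amd1, an enzyme of polyamine synthesis (log2 -0.37 ± 0.10, edgeR adjusted p = 0.0232), fell. Lama4, Rev3l, Gtf3c6 and the related genes Mfsd4b4 and Mfsd4b3-ps, whose reads may be split between them, were not called.

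**Figure D5:**
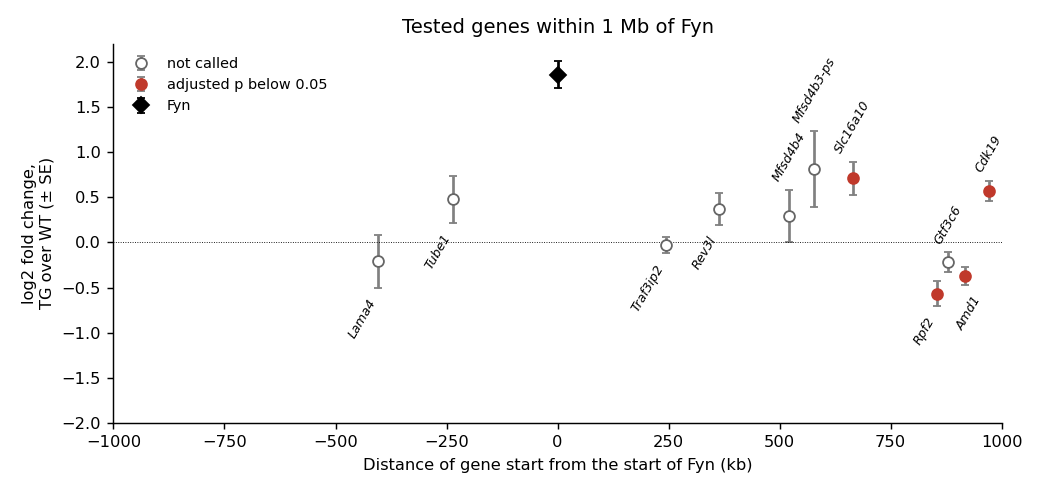
Log2 fold change with SE (TG over WT, vertical axis) of the 11 tested genes that start within 1 Mb of the start of Fyn, against the distance from it in kb, with red points for an adjusted p below 0.05 and Fyn as a black diamond. Fyn at 1.86 lies above all of them, and its nearest tested neighbours, Tube1 and Traf3ip2, are not called.

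The annotation was checked for genes that share the place of the 7 on the genome. Of the genes that overlap them, Rps20, a ribosomal protein gene inside Lyn, had 22841 counts over all 8 libraries, but it lies on the opposite strand and shares no exon with Lyn. The other overlapping genes had 0 to 80 counts each over all 8 libraries, and those within Fyn had 0 to 14.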

How the data were processed

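The 4 TG and 4 WT libraries were grouped by their labels. The authors deposited whole-number counts per Ensembl gene and library, which were used as deposited. The submitters' processing notes name STAR 2.7.0a, DESeq2 and build mm39, while neither counting tool nor annotation is given in the sources used here. Symbols, positions and lengths came from GENCODE M39 (GRCm39). Counts were tested with edgeR 4.0.16 in R 4.3.3 (robust quasi-likelihood test, TMM factors, default filter, group as the only term, Benjamini-Hochberg at 0.05), tested on simulated data first. CPM are TMM-normalised, and SE is the log2 fold change over the root of its F statistic. Alternatives were DESeq2 1.42.0, limma 3.58.1 (voom), other factors and filters, a replicate block, a term for Y-linked counts (Ddx3y, Eif2s3y, Kdm5d and Uty) and each library left out.

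The members, lists and tests were chosen with earlier results of these data known. Of each pathway list, up to 4 called genes per direction with the smallest p are named, with the 5 genes most like Fyn, the tested genes within 1 Mb of it and the 2 most abundant markers where a marker list is described. No 2 replicates agreed within sampling noise (chi-square per degree of freedom at least 5.2). The labels do not tie libraries to single animals, so p-values measure the spread between these samples, and counting limits leave out repeated molecules. Of the genes that the rule or lists name, 3 are not reported here.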

Additional observations from a re-analysis of the deposited data

Results flagged for a closer look

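Of 48 groups of 4 libraries (the 7 members and the named pathway genes, in TG and in WT), 2 held a library that stood far from the other 3. Chance alone gives such a library in about 1 of 20 groups. One was TG replicate 1 for Csk, at 55.6 CPM while replicates 2 to 4 lay at 61.2 to 61.3 CPM, so that the gap made up 0.977 of the group's range. The other was WT replicate 4 for Dab1, at 3.72 CPM while replicates 1 to 3 lay at 1.95 to 2.14 CPM (0.892 of the range), and without that library its log2 fold change was 1.38 in place of 1.11.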

How the results depend on the processing

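No named pathway gene reversed a called direction in the 20 settings. Counts of members called are given only as a description, since the members were chosen with this contrast known. The calls over all genes went from 2136 to 1049 with total counts (787 higher and 262 lower, so that 75% of calls were higher in place of 46.1%), to 217 in the libraries with Y-linked counts and to 1138 in those without. In those without, 2 members were called, Pag1 beside Fyn, as without TG replicate 3. The regulators called went from 5 to 2 with total counts, 0 in the libraries with Y-linked counts and 2 in those without. In the libraries with Y-linked counts, 2 substrates (main value 9) and 1 receptor (main value 7) were called. The fits within these libraries rest on 2 against 2. Receptors called were 11 with DESeq2 and 11 with no filter. When 1 library was left out, calls over all genes ran from 1055 (without TG replicate 2) to 2228 (without WT replicate 2) and stood at 1083 without TG replicate 1. The members called ran from 1 to 2, regulators from 2 to 6, substrates from 8 to 10, receptors from 5 to 11, neighbouring pairs that differed in level from 4 to 5 and members called for Y-linked counts from 0 to 0.

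Of the comparisons of a single named pathway gene with an alternative, 288 kept the call and 35 lost it, and the causes were not tested. The log2 fold changes of the members other than Fyn, which have no test, moved by less than the spread between replicates in 111 comparisons and by more in 3 (Src with total counts and Pag1 in the libraries with and without Y-linked counts). Ptprj was lost most often, in 9 settings. Libraries with the same replicate number deviated together only weakly (correlations of 0.08, 0.07, 0.29 and 0.23), so the numbers were not taken as pairs. With a replicate block, 1039 genes were called higher and 1164 lower, the members called numbered 1, and no list's count moved by over 1.5 times. The WT libraries alone are too few for the test of levels, and their order differed from that of all 8 in Src above Csk. Depth limits the genes with few counts, such as Fgr (117 counts over all 8 libraries) and Matk (145).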
